A study of Mus musculus with 6 samples.

Results

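Magnesium transport in the liver was followed through 10 genes of the deposited expression table: Nipal1, Nipal2, Nipal3, Nipa1 and Nipa2 of the NIPA family, Cnnm2, Cnnm3 and Cnnm4 of the CNNM family, the channel gene Trpm7 and the mitochondrial channel gene Mrs2. They were found by gene symbol, and all 10 were among the 16638 genes of the table. Nipal1 was chosen by its measured level, which differed between HA and PBS livers, and the rest were selected as its relatives with their values known. Differences of these 10 genes between HA and PBS are therefore given as descriptions, without a p-value. Bulk liver RNA was sequenced from obese mice that had received hippuric acid (HA, the glycine conjugate of benzoic acid) or phosphate-buffered saline (PBS), with 3 libraries in each group. HA went into the abdomen at 60 mg/kg, 2 times a week over 5 weeks. The labels give neither the schedule of PBS nor the strain, sex, age or diet that made the mice obese, and they do not say that the libraries of a group came from separate animals, so every p-value below measures the spread between libraries, which may be technical. The series title places the work in metabolic dysfunction-associated steatotic liver disease.

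Libraries held 37921444 to 39349601 fragments with HA and 38209590 to 39908844 fragments with PBS. All 6 hepatocyte markers of the list, among them Alb and Apob, were in the table. They summed to 75579 to 89306 FPKM (fragments per kilobase of gene, scaled to library depth) with HA and 49081 to 60928 FPKM with PBS, most of it Alb. Of the 6, 2 were higher in every HA library than in any PBS library, as were 6.47% of all 10745 genes tested. Albumin (Alb) alone took 12.5 to 14.7% of the fragments with HA and 7.53 to 9.82% with PBS. PBS replicate 1 stood apart in 5 adrenal gland markers, which summed to 61.2 FPKM there against at most 0.391 FPKM in the other libraries, and in 5 skeletal muscle markers, which summed to 41.6 FPKM against at most 0.971 FPKM. In bulk RNA, fewer cells of a type and less RNA per cell cannot be told apart.

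Magnesium is the cofactor of ATP and of many enzymes, and cells move it across their membranes with several unrelated protein families. The NIPA proteins span the membrane and have been described as magnesium transporters in cell assays, with other divalent cations carried by some of them. The CNNM proteins, also called cyclins M, sit in the plasma membrane and are tied to magnesium efflux, with CNNM4 best known from the gut and CNNM2 from the kidney tubule. TRPM7 joins a channel for divalent cations to a protein kinase and is found in most cells, and MRS2 is the magnesium channel of the inner mitochondrial membrane. Nipal1 is best known from the kidney, where it was linked to magnesium handling in mice and to gout in humans.

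The sequences just upstream of Nipal1, the gene with the largest difference, of Nipa2, the most abundant NIPA gene, and of Cnnm4, the CNNM gene with the largest difference, are shown to set them side by side. Each is the run of 250 bases before the annotated start in RefSeq, on mouse build GRCm38.p6, whereas the expression values were made on GRCm39. They lie at chr5:72647546-72647795 on the plus strand, at chr7:55962494-55962743 on the minus strand and at chr1:36471347-36471596 on the plus strand, in that order. Capitals mark the CCAAT box and the GC box GGGCGG on either strand.
Nipal1: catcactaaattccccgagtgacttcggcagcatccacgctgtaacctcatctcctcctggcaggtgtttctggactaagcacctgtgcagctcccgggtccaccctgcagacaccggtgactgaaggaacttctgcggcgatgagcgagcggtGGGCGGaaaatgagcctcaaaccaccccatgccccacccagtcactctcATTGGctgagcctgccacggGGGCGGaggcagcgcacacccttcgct
Nipa2: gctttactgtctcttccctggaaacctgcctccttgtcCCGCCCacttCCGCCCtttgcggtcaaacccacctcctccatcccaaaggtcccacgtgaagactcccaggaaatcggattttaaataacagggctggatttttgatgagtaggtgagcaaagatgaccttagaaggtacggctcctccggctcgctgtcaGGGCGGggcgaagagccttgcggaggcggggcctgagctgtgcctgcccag
Cnnm4: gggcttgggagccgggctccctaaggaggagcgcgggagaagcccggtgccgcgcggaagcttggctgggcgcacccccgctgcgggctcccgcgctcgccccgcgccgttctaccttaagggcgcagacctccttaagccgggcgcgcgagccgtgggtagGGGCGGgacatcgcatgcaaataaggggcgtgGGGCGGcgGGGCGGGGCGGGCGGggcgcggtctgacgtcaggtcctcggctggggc

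The Nipal1 window was 61.2% G and C with 14 CpG pairs, against a median of 52.4% over the 32851 mouse promoters of the same length. It held 1 CCAAT box, read as ATTGG 47 bases before the start, and GC boxes 96 and 27 bases before it. CCAAT occurred in 33.8% of all promoters and GGGCGG in 32.7%. The Nipal1 window held none of the other 5 motifs searched on both strands, which were TATAAA (12.4% of promoters), CACGTG (6.02%), TGACGTCA (1.55%), TTCNNNGAA (7.02%) and TGACNNNGC (10.2%). The Nipa2 window was 58% G and C, with GC boxes 212, 202 and 51 bases before the start and a CACGTG at 159, and it held no CCAAT box. The Cnnm4 window was the richest of the 3 in G and C, at 75.6%, with 34 CpG pairs, 5 GC boxes that partly overlap and a TGACGTCA 24 bases before the start. Promoters of 8 of the 10 genes were matched in the RefSeq table. These matches describe letters in a window and are not measured binding.

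Nipal1 was the gene of the set that stood apart between the groups. It was at 11.9, 6.59 and 7.08 FPKM in HA livers, against 0.432, 0.787 and 1.65 FPKM in PBS livers. Every HA library lay above every PBS library, and the lowest HA value was several times the highest PBS value. The values rest on 1969, 1058 and 1129 fragments with HA and 71, 132 and 265 with PBS. Exact Poisson 95% intervals, which cover counting error only, were 11.4 to 12.4, 6.19 to 6.99 and 6.67 to 7.51 FPKM with HA and 0.338 to 0.545, 0.658 to 0.933 and 1.46 to 1.86 FPKM with PBS. The 3 intervals in PBS livers were separate from one another, so the PBS libraries differed by more than counting error. Nipal1 averaged 8.52 ± 2.94 FPKM with HA and 0.956 ± 0.626 FPKM with PBS (SD, n = 3 each), 8.91-fold higher with HA. On the log2(FPKM + 1) scale, which understates changes of low genes, the difference was 2.29 (SE 0.27), the 6th most positive among the 10745 genes that averaged 0.5 FPKM or more. The fold of means was 14.0 without PBS replicate 3, the PBS library with the highest value, 7.00 without PBS replicate 1 and 7.15 without HA replicate 1. It was 9.93 without HA replicate 2, 9.67 without HA replicate 3 and 8.19 without PBS replicate 2.

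**Figure D1:**
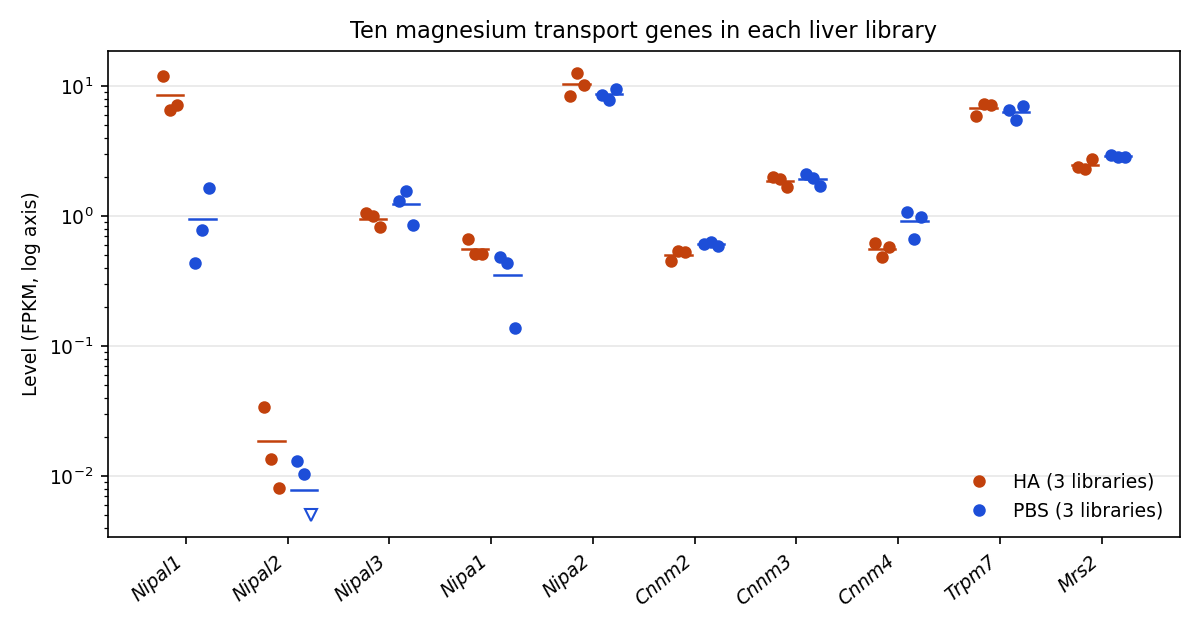
Level of each of the 10 genes in FPKM on a log axis, with 1 point per library, HA left of PBS in each pair, a bar at the group mean and an open triangle at the foot for the library listed at 0. Nipal1 lies at 6.59 to 11.9 FPKM in HA livers and 0.432 to 1.65 FPKM in PBS livers, while Nipa2 and Trpm7 share their ranges between the groups.

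Its place among all genes differed as well. The Nipal1 level exceeded that of 82.6, 74.0 and 75.7% of the genes in the table in the HA libraries, against 33.7, 41.0 and 51.4% in the PBS libraries. Among the 10 genes it ranked 1st, 3rd and 3rd in HA replicates 1 to 3, against 9th, 6th and 5th in PBS replicates 1 to 3. Nipal1 was thus among the 3 highest members in HA livers and in the middle or near the foot of the set in PBS livers. Of the summed FPKM of all 10 genes it made up 35.6, 19.8 and 22.6% with HA and 1.80, 3.54 and 6.55% with PBS. No other exon overlapped those of Nipal1 in the mouse annotation at hand, which is of build GRCm38.

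Markers of other cell types moved beside Nipal1 to different degrees. Red cell markers summed to 698 to 1319 FPKM with HA and 227 to 335 FPKM with PBS, with 4 of 5 higher in every HA library than in any PBS library, 1 lower, and none at 0 throughout a group. HA replicate 1, highest for Nipal1, was the lowest HA library for that sum. Neutrophil markers summed to 4.98 to 8.80 FPKM with HA and 1.24 to 3.18 FPKM with PBS, with 3 of the 4 in the table higher in every HA library and Ngp at 0 in every PBS library. Bile duct markers summed to 24.7 to 29.1 FPKM with HA and 13.3 to 23.3 FPKM with PBS, with 2 of 5 higher in every HA library and none at 0 throughout a group. Macrophage, endothelial, stellate cell and lymphocyte marker sums overlapped between the groups. Over all 10745 genes tested, 6.47% were higher in every HA library than in any PBS library and 19.2% were lower. By limma with Benjamini-Hochberg adjustment at 0.05, 3 of the 5 red cell markers were called, and 0 of the neutrophil or bile duct markers. These counts do not separate higher from lower. A marker that averaged under 0.5 FPKM was not tested and is among those not called. Over all genes tested, 0.289% were called higher and 0.512% lower. The part of these cells in the Nipal1 difference was not tested. In PBS replicates 2 and 3, where the adrenal and muscle sums were at most 0.971 FPKM, Nipal1 was at 0.787 and 1.65 FPKM. Adipose markers summed to 1.03, 10.7 and 1.99 FPKM in HA replicates 1 to 3, against 13.1, 25.3 and 5.68 FPKM in PBS replicates 1 to 3. The part of such tissue in the Nipal1 difference was not tested.

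The other NIPA genes differed much less between the groups than Nipal1 did. Nipa2, which encodes a magnesium transporter of the plasma membrane and early endosomes, was at 8.41, 12.6 and 10.2 FPKM in HA livers, against 8.60, 7.83 and 9.45 FPKM in PBS livers. The groups overlapped, since HA replicate 1 was below PBS replicates 1 and 3. Its means were 10.4 ± 2.11 FPKM with HA and 8.63 ± 0.808 FPKM with PBS (SD, n = 3 each), a difference of 0.23 on the log2(FPKM + 1) scale (SE 0.15). In the GRCm38 annotation Nipa2 shares 1316 exonic bases with Cyfip1 on the opposite strand. Strand use in counting is not given, so some of its fragments may belong to Cyfip1.

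Nipa1, whose human counterpart is mutated in a hereditary spastic paraplegia, was at 0.665, 0.506 and 0.510 FPKM in HA livers, against 0.482, 0.432 and 0.137 FPKM in PBS livers. All HA values were above all PBS values, but the gap between HA replicate 2 and PBS replicate 1 was small. These values rest on 50, 37 and 37 fragments with HA and 36, 33 and 10 fragments with PBS. Nipa1 averaged 0.560 ± 0.0902 FPKM with HA and 0.351 ± 0.187 FPKM with PBS (SD, n = 3 each), 1.60-fold higher with HA, and 1.23-fold without PBS replicate 3. Its mean over the 6 libraries, 0.455 FPKM, was under the minimum of 0.5 FPKM, so it did not enter the fit. Its groups did not overlap under any of the 5 scalings tried. In the GRCm38 annotation it shares 473 exonic bases with A230056P14Rik on the opposite strand. Its exons there hold 3183 bases, against a length of 1912 recovered from the values. Whether the shared bases were counted for Nipa1 is therefore not known.

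Nipal3, a relative of less known function, was at 1.04, 0.994 and 0.825 FPKM in HA livers, against 1.30, 1.55 and 0.853 FPKM in PBS livers. The groups overlapped, with PBS replicate 3 inside the HA range. It averaged 0.955 ± 0.115 FPKM with HA and 1.23 ± 0.353 FPKM with PBS (SD, n = 3 each), a log2(FPKM + 1) difference of -0.18 (SE 0.13). Nipal2 was barely present, at 0.0339, 0.0134 and 0.00811 FPKM in HA livers, against 0.0131, 0.0103 and 0 FPKM in PBS livers. These are 13, 5 and 3 fragments with HA and 5, 4 and 0 fragments with PBS, and the exact Poisson 95% interval of the library at 0 reaches 0.00989 FPKM. No difference in Nipal2 was detectable at this depth.

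Set together, the 5 NIPA genes summed to 22.1, 20.7 and 18.7 FPKM in HA livers, against 10.8, 10.6 and 12.1 FPKM in PBS livers. The sums averaged 20.5 ± 1.71 FPKM with HA and 11.2 ± 0.797 FPKM with PBS (SD, n = 3 each), and the groups did not overlap. Nipal1 held 54.0, 31.8 and 38.0% of this sum with HA, against 3.996, 7.41 and 13.6% with PBS. Without Nipal1 the NIPA sum was 10.2, 14.1 and 11.6 FPKM in HA livers, against 10.4, 9.83 and 10.4 FPKM in PBS livers, and these overlapped. HA replicate 1, with the most Nipal1, had the least Nipa2 of the HA libraries. The SD of the family sum over HA livers, 1.71 FPKM, was below the 2.94 FPKM of Nipal1 and the 2.11 FPKM of Nipa2. PBS livers differed: replicate 3 had the most Nipal1 and the most Nipa2 of the PBS libraries. There the SD of the family sum, 0.797 FPKM, was above the 0.626 FPKM of Nipal1 and below the 0.808 FPKM of Nipa2.

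**Figure D2:**
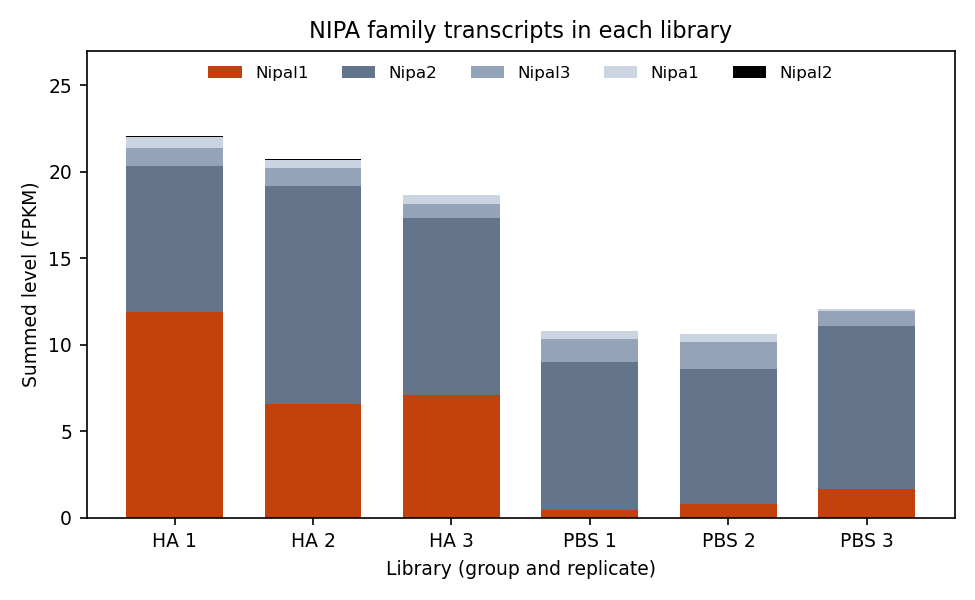
Summed level of the 5 NIPA genes in FPKM in each library, stacked by gene, with the HA libraries left of the PBS libraries. The stacks reach 18.7 to 22.1 FPKM in HA livers and 10.6 to 12.1 FPKM in PBS livers, and Nipal1 makes up 31.8 to 54.0% of them with HA and 3.996 to 13.6% with PBS.

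The CNNM genes were low in liver, and their HA means were all below their PBS means in FPKM. Cnnm3, the most abundant of the 3, was at 1.99, 1.92 and 1.66 FPKM in HA livers, against 2.09, 1.97 and 1.69 FPKM in PBS livers. These ranges nearly coincide, and the mean difference was -0.03 on the log2(FPKM + 1) scale (SE 0.10), with a sign that turned in 6 of the 16 other settings tried. Its means were 1.86 ± 0.175 FPKM with HA and 1.92 ± 0.205 FPKM with PBS (SD, n = 3 each).

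Cnnm4, whose human counterpart is mutated in a disorder of retina and tooth enamel, was at 0.621, 0.480 and 0.576 FPKM in HA livers, against 1.07, 0.662 and 0.988 FPKM in PBS livers. Every HA value was below every PBS value, with HA replicate 1 close to PBS replicate 2. The values came from 112, 84 and 100 fragments with HA and 192, 121 and 173 fragments with PBS. Cnnm4 averaged 0.559 ± 0.0722 FPKM with HA and 0.908 ± 0.217 FPKM with PBS (SD, n = 3 each), 0.616 times the PBS level, and its log2(FPKM + 1) difference of -0.29 (SE 0.11) was the most negative of the set. The separation depended on the scaling: the groups overlapped once libraries were scaled outside Alb, by TMM, by median ratios or by their medians.

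Cnnm2, mutated in inherited magnesium wasting in humans, was at 0.452, 0.533 and 0.525 FPKM in HA livers, against 0.610, 0.631 and 0.589 FPKM in PBS livers. The PBS libraries lay close together and above all HA libraries, except that the groups overlapped after median centring. Its means were 0.504 ± 0.0446 FPKM with HA and 0.610 ± 0.0210 FPKM with PBS (SD, n = 3 each), a log2(FPKM + 1) difference of -0.10 (SE 0.08). The 3 CNNM genes together summed to 3.07, 2.93 and 2.76 FPKM in HA livers, against 3.77, 3.26 and 3.27 FPKM in PBS livers. That is 2.92 ± 0.154 FPKM with HA and 3.43 ± 0.294 FPKM with PBS (SD, n = 3 each).

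The channel-kinase gene Trpm7 was at 5.90, 7.29 and 7.18 FPKM in HA livers, against 6.48, 5.502 and 6.99 FPKM in PBS livers. The groups overlapped, and the means of 6.79 ± 0.772 FPKM with HA and 6.32 ± 0.757 FPKM with PBS (SD, n = 3 each) differed by less than 1 SD of either group. Mrs2, the mitochondrial magnesium channel gene, was at 2.38, 2.31 and 2.75 FPKM in HA livers, against 2.96, 2.82 and 2.84 FPKM in PBS livers. Its HA libraries were all below its PBS libraries in FPKM, and overlapped them under each of the other 4 scalings. Mrs2 averaged 2.48 ± 0.238 FPKM with HA and 2.88 ± 0.0771 FPKM with PBS (SD, n = 3 each), a log2(FPKM + 1) difference of -0.16 (SE 0.09). In the GRCm38 annotation it shares 2466 exonic bases with Gpld1 on the opposite strand. Gpld1 was at 54.9 ± 10.99 FPKM with HA and 60.0 ± 3.33 FPKM with PBS (SD, n = 3 each). Fragments of this more abundant gene may therefore be among those counted for Mrs2.

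Per kilobase, the order of the genes in HA livers was Nipa2, Nipal1, Trpm7, Mrs2, Cnnm3, Nipal3, Nipa1, Cnnm4, Cnnm2 and Nipal2. In that order the ranges of Nipa2 and Nipal1, of Nipal1 and Trpm7, of Nipa1 and Cnnm4, and of Cnnm4 and Cnnm2 overlapped, and the other neighbours were separate. In PBS livers the order was Nipa2, Trpm7, Mrs2, Cnnm3, Nipal3, Nipal1, Cnnm4, Cnnm2, Nipa1 and Nipal2. There the ranges of Nipal3 and Nipal1 and of Nipal1 and Cnnm4 overlapped, and the other neighbours were separate. The main move between the 2 orders was that of Nipal1, which stood between Nipa2 and Trpm7 in HA livers and between Nipal3 and Cnnm4 in PBS livers. All 10 genes summed to 33.4, 33.2 and 31.3 FPKM in HA livers, against 24.0, 22.2 and 25.2 FPKM in PBS livers. The 9 genes other than Nipal1 summed to 21.5, 26.7 and 24.3 FPKM in HA livers, against 23.6, 21.4 and 23.5 FPKM in PBS livers, and these overlapped.

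Of the 10 genes, 8 averaged 0.5 FPKM or more and entered the fit across all genes. By limma with Benjamini-Hochberg adjustment at 0.05, 1 of the 8 (Nipal1) was called higher with HA, where 0.289% of all 10745 genes tested were, and 0 were called lower, where 0.512% of all genes were. The choice of Nipal1 used this contrast, so nothing is read from that count. Nipal1 was called in 11 of the 16 other settings; it was not called with no filter on low genes, with the replicate number as a block, or without HA replicate 3, PBS replicate 1 or PBS replicate 2. Groups did not overlap with HA higher in 1 of the 8 (6.47% of all genes) and with HA lower in 3 of the 8 (19.2% of all genes). The 3 were Cnnm2, Cnnm4 and Mrs2. The excess of lower over higher genes is itself tied to the scaling: 695 genes were higher and 2059 lower in FPKM, against 1172 higher and 1262 lower after scaling outside Alb. The median log2(FPKM + 1) difference of the 8 genes was -0.06, and that of all genes tested was also -0.06.

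Other genes of magnesium handling were taken from 4 lists, and 20 of their 31 members in the table were abundant enough to test. None of the 20 passed limma's test with Benjamini-Hochberg adjustment, nor did any under voom, while 6 had an unadjusted p under 0.05 by limma, as did 17.7% of all genes tested, and 3 by voom with TMM, as did 16.0% of all genes. Of these 20 genes, 2 were above all PBS values in every HA library (6.47% of all genes), 4 were below them (19.2% of all genes) and 14 overlapped. The median log2(FPKM + 1) difference was -0.08, beside -0.06 for all genes.

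Among 7 tested magnesium transporters outside the 10 genes, the one with the smallest p was Slc41a2, a transporter of the SLC41 family. It was at 17.0, 7.88 and 9.77 FPKM in HA livers, against 5.97, 6.63 and 2.78 FPKM in PBS livers. As with Nipal1, HA replicate 1 was the highest library and all HA values were above all PBS values. Slc41a2 averaged 11.6 ± 4.84 FPKM with HA and 5.12 ± 2.06 FPKM with PBS (SD, n = 3 each), 2.26 times the PBS level, which did not pass the test (limma with Benjamini-Hochberg, adjusted p = 0.179, 0.138 to 0.348 in the other settings). Mmgt1, which is also a subunit of the ER membrane protein complex, averaged 6.17 ± 0.456 FPKM with HA and 7.52 ± 0.193 FPKM with PBS (adjusted p = 0.228 by limma, Benjamini-Hochberg, n = 3 each). Tusc3, which also serves protein glycosylation, averaged 2.07 ± 0.629 FPKM with HA and 2.78 ± 0.441 FPKM with PBS (adjusted p = 0.359 by limma, Benjamini-Hochberg, n = 3 each). The related Mmgt2 was too low to test, at 0.480, 0.459 and 0.364 FPKM in HA livers, against 0.250, 0.169 and 0.194 FPKM in PBS livers, and its groups did not overlap. Trpm6, the channel partner of TRPM7 in kidney and gut, was at most 0.0172 FPKM with HA and 0.0400 FPKM with PBS. Of 4 other TRPM channels in the table none reached the minimum to be tested.

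Among 7 tested partners and regulators, Egfr, the receptor for EGF, a hormone that acts on magnesium uptake in the kidney, had the smallest p. It was at 33.8, 23.9 and 21.5 FPKM in HA livers, against 9.96, 19.7 and 8.69 FPKM in PBS livers, with no overlap. Its means were 26.4 ± 6.53 FPKM with HA and 12.8 ± 6.02 FPKM with PBS (SD, n = 3 each), and the difference of 1.05 on the log2(FPKM + 1) scale (SE 0.30) did not pass limma's test (Benjamini-Hochberg adjusted p = 0.143, 0.121 to 0.377 in the other settings). The phosphatase genes Ptp4a1 and Ptp4a3, whose proteins bind CNNM proteins, had log2(FPKM + 1) differences of -0.34 (SE 0.17) and -0.14 (SE 0.11), with limma adjusted p of 0.334 and 0.554 by Benjamini-Hochberg. No partner of the CNNM genes passed the test.

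In mitochondria, the genes around the calcium uniporter were looked at beside Mrs2. Letm1, a cation exchanger of the inner mitochondrial membrane, was at 7.89, 6.38 and 7.18 FPKM in HA livers, against 9.17, 11.1 and 10.05 FPKM in PBS livers. Its groups did not overlap under any of the 5 scalings, and its log2(FPKM + 1) difference of -0.45 (SE 0.11) had a limma adjusted p of 0.118 (Benjamini-Hochberg), short of the threshold. Smdt1, which encodes the uniporter subunit EMRE, averaged 36.5 ± 4.53 FPKM with HA and 46.1 ± 3.88 FPKM with PBS (limma, Benjamini-Hochberg adjusted p = 0.219, n = 3 each). Mcur1, a regulator of the uniporter, averaged 7.58 ± 1.11 FPKM with HA and 9.34 ± 0.199 FPKM with PBS (limma, Benjamini-Hochberg adjusted p = 0.269, n = 3 each). Mrs2, Letm1, Smdt1 and Mcur1 were thus all lower in every HA library than in any PBS library in FPKM, while Smdt1 and Mrs2 lost that separation under the other scalings.

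**Figure D3:**
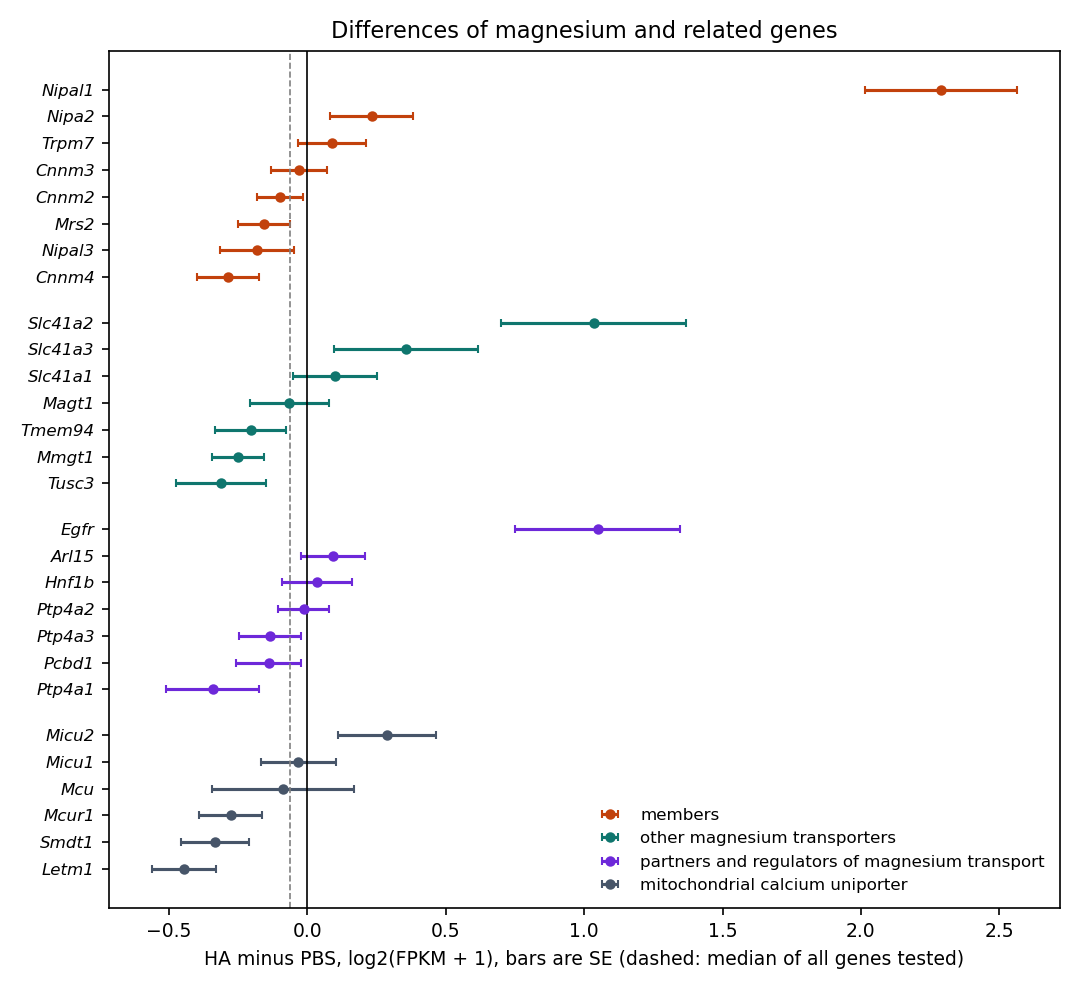
Difference in log2(FPKM + 1) between HA and PBS for 8 of the 10 genes and the 20 tested genes of the other lists, with points at the estimate, bars of 1 SE and a dashed line at the median of all genes tested, -0.06. Nipal1 lies at 2.29, Egfr at 1.05 and Slc41a2 at 1.03, and Letm1 is the lowest at -0.45.

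Genes with the profile most like that of Nipal1 were ranked by the root mean square difference of log2(FPKM + 1), centred on each gene's mean, over the 6 libraries. The nearest of the genes tested was Enho, which encodes the secreted peptide adropin, at a distance of 0.316. Enho was at 32.9, 15.9 and 29.0 FPKM in HA livers, against 4.72, 5.14 and 5.56 FPKM in PBS livers. The scavenger receptor gene Marco, a marker of macrophages, was at a distance of 0.422 and shared the high value of Nipal1 in PBS replicate 3. It was at 14.9, 10.3 and 11.6 FPKM in HA livers, against 1.46, 2.56 and 7.27 FPKM in PBS livers. The alpha globin gene Hba-a1 was at a distance of 0.498, and its values are uncertain because a near-identical copy can take its fragments. The co-chaperone gene Dnajc12 was at 0.510, with 57.7, 13.7 and 18.4 FPKM in HA livers, against 5.22, 7.09 and 5.39 FPKM in PBS livers. As in Nipal1, HA replicate 1 was its highest library.

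The same distance was taken for the 7 other members that entered the fit, which leaves out Nipal2 and Nipa1. It ran from 1.12 for Nipa2, number 1289 in order of distance, to 1.33 for Cnnm4, number 8726. Outside the set, Egfr was at 0.793, number 46, and Slc41a2 at 0.845, number 68. The 6 libraries fall in 2 groups, so this distance holds the group difference itself and is a description.

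**Figure D4:**
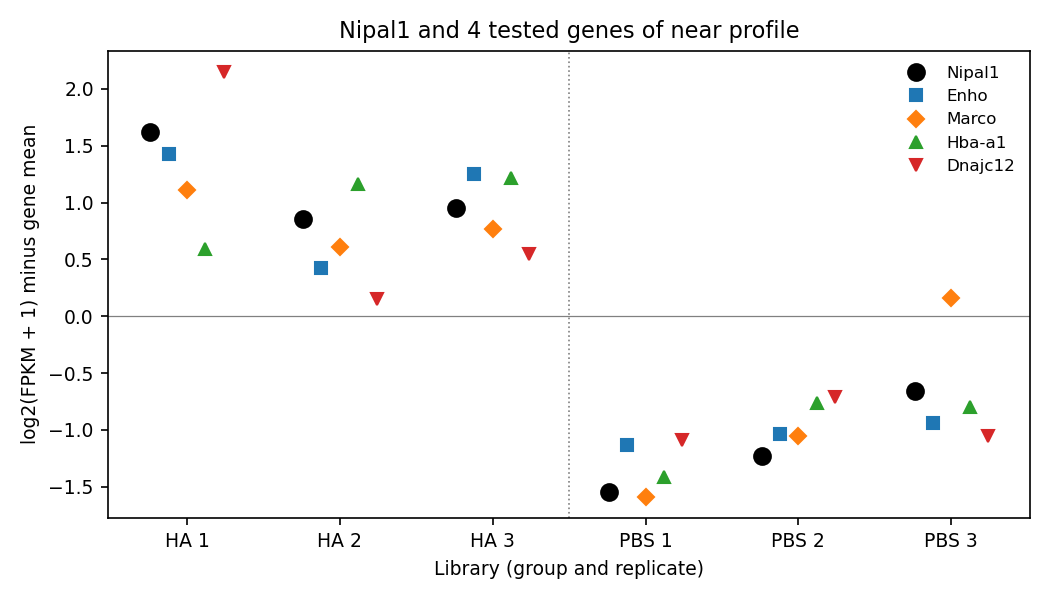
Level of Nipal1 and of 4 genes of near profile in each library, as log2(FPKM + 1) minus the mean of the gene, with HA libraries left of PBS libraries. All are above 0 in every HA library, and PBS replicate 3 is the highest PBS library for Nipal1, Enho and Marco.

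The nearest tested genes on either side of Nipal1 on its chromosome are Nfxl1 and Tec, and neither passed the test. Nfxl1 averaged 2.47 ± 0.231 FPKM with HA and 2.15 ± 0.477 FPKM with PBS, and the kinase gene Tec 5.14 ± 0.828 FPKM with HA and 5.70 ± 0.119 FPKM with PBS (SD, n = 3 each). Both had an adjusted p of 0.584 by limma with Benjamini-Hochberg. Cnnm4 lies next to Cnnm3, with no gene between them. On its other side Lman2l, a gene of the secretory pathway, averaged 2.09 ± 0.221 FPKM with HA and 2.81 ± 0.413 FPKM with PBS (limma, Benjamini-Hochberg adjusted p = 0.246, n = 3 each). Nipa1 and Nipa2 lie with 1 gene between them. The nearest tested genes outside the set around Nipal1, Nipa1, Cnnm2, Cnnm4 and Mrs2 were 8. Of these, 0 were called by limma with Benjamini-Hochberg adjustment and 0 by voom. Over all genes tested, limma called 0.289% higher and 0.512% lower, so nothing is read from that count. Of the 8, 1 (Lman2l) had an unadjusted p under 0.05 by limma and by voom. Over all genes, 17.7% did by limma and 16.0% by voom with TMM. Limma adjusted p-values of the 8 ran from 0.246 to 0.769.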

How the data were processed

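The authors deposited 1 table of FPKM values for 16638 genes, 1 column per library, and all 6 columns were matched to labels by name. Per the submitters' processing notes, reads went through Trimmomatic and HISAT2 on mouse build GRCm39, with no versions. No counter, annotation, strand use or gene filter is given in the sources used here. Per the labels' protocols, 2 library kits are named, of which 1 is stranded. Whole fragments, library totals and gene lengths were recovered from the deposited FPKM: 99828 values came out whole within 0.0001, though a common factor could remain. No library was a copy of another (chi-square at least 31.1 per degree of freedom).

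Tests on log2(FPKM + 1) used limma 3.58.1 (R 4.3.3) over 10745 genes that averaged 0.5 FPKM or more, with treatment as the only term, a variance trend and two-sided p-values with Benjamini-Hochberg adjustment across all tested genes. The alternatives were a pseudocount of 0.1, no filter or a minimum mean of 1 FPKM, no trend, robust fitting, median centring, scaling outside Alb, voom on recovered fragments with TMM or median-ratio scaling, the replicate number as a block, and leaving out each library. Scripts were tested on simulated data. Same-numbered libraries of the 2 groups deviated with correlations of -0.14, -0.13 and 0.18. With 3 libraries a group, this cannot settle whether the numbers pair them, and the main fit treated them as unpaired.

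Members and lists were chosen with earlier results of these data known. The text names all 10 members, the 3 genes of smallest p in each other list, 4 of the 5 genes nearest to Nipal1 (the other is not reported here) and the adjacent tested genes of members whose groups did not overlap. Mmgt2, Trpm6 and the genes sharing exons were added for their link to members, after their values were seen. Promoters came from RefSeq on GRCm38.p6. Coordinates of expression values were not used.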

Additional observations from a re-analysis of the deposited data

How the results depend on the processing

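Limma called 86 genes over the whole table, 31 higher and 55 lower with HA. With no filter it called 17 genes, 7 higher and 10 lower, and with the replicate number as a block 16 genes, 7 higher and 9 lower; Nipal1 was called in neither, so 0 of the 10 genes were. Whether the numbers pair the samples is not known, and the block leaves fewer residual degrees of freedom. Why fewer genes were called with it was not tested. The split moved to 36 higher and 32 lower with median centring, to 33 higher and 24 lower of 57 after scaling outside Alb, and to 28 higher and 19 lower of 47 under each voom fit, while Nipal1 was called in all 4. Leaving out 1 library at a time gave 7 to 115 calls, 1 to 46 higher and 4 to 69 lower, and 0 to 1 of the 10 genes. Those calls were 17 higher and 17 lower without HA replicate 1, 46 and 69 without HA replicate 2, 6 and 19 without HA replicate 3, 3 and 4 without PBS replicate 1, 1 and 7 without PBS replicate 2, and 5 and 6 without PBS replicate 3. The Nipal1 difference ran from 2.05 to 2.53 over the settings on log2(FPKM + 1). It was 3.15 with a pseudocount of 0.1 and 3.40 under each voom fit, which are other scales. Nipal1 was chosen by this contrast, so its sign, the same in each of the 16 settings, and its calls are descriptions. The sign of Cnnm3 turned without HA replicate 3, without PBS replicate 1, with median centring, after scaling outside Alb and under both voom fits. No gene of the 4 other magnesium lists was called under any setting. With 3 libraries a group, depth limits Nipal2 and Nipa1 most, at 0 to 50 fragments a library.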
